A study of Mus musculus with 35 samples.

Results

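The blood-brain barrier is formed by the endothelial cells of brain capillaries together with the pericytes that wrap them. A list of 41 genes linked to these cells was followed through RNA-seq of mouse hypothalamus, out of 49568 gene names in the count tables. The genes were matched to the tables by name, and the list was chosen with earlier results of these data known. They fall into 6 roles, with 6 genes of junctions and adhesion, 7 for receptors and a phosphatase of vessel growth, and 8 other endothelial genes. The rest are 3 arterial endothelial genes, 10 transporters and 7 pericyte genes. All 41 names were present in the tables, and all 41 passed the filter on low counts and were tested.

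Brain endothelial cells are sealed by tight junctions of claudins and occludin, held together by VE-cadherin and related adhesion molecules, and carry few vesicles. Nutrients therefore cross through transporters, such as the glucose carrier Slc2a1 and the large neutral amino acid carrier Slc7a5. Vascular endothelial growth factor and angiopoietin receptors govern the growth and maturation of the vessels, Wnt signals from neural cells induce the barrier state, and platelet-derived growth factor from the endothelium recruits pericytes through Pdgfrb. In the hypothalamus most vessels have a barrier, whereas those of the median eminence are fenestrated and carry the diaphragm protein Plvap.

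The study measured polyA RNA from the dissected hypothalamus of 35 male mice of strain B6/J, with 1 library per mouse, all taken at Zeitgeber time 16, which counts hours from lights-on. Food was either given ad libitum or withheld for 16 h from lights-on. There were 10 fed and 10 fasted controls, 5 fed and 5 fasted PER2-S662D mice, and 5 fasted mice labelled Per2 knockout. In PER2-S662D, written S662D from here on, an aspartate replaces a serine of the clock protein PER2 that is normally phosphorylated. How either allele was made, and the ages of the mice, are not given in the sources used here, and no knockout mice were fed.

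Depth was 17959586 to 37027342 counts per library, and p-values measure the spread between these single mice. Per2 itself did not set the knockout label apart: its level ranged from 28.2 to 33.4 (median 29.5) CPM in the mice labelled Per2 knockout against 26.1 to 33.1 (median 28.97) CPM in fasted controls, so that group is called the labelled knockout throughout. Per2 was lower in S662D mice (16.9 to 21.4 CPM fed, 16.4 to 22.7 CPM fasted). CPM is a gene's count relative to the scaled size of its library. The library numbers in the file headers form separate ranges for controls 1 to 5, controls 6 to 10, the labelled knockout and the S662D mice, and 6 of the 10 S662D libraries (replicates 2, 3 and 4 of each feeding state) carry an additional final digit whose meaning is not stated. Genotype and library range therefore cannot be told apart for S662D and for the labelled knockout, and results are given within these sets below. Choroid plexus markers (6 genes, summed) ranged from 19.4 to 1540.3 CPM among fasted controls alone, and 5 leukocyte markers summed to 0 to 0.883 CPM over the libraries.

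In fed controls a pair of transporters led the list. Levels between genes are compared as RPKM, CPM divided by the exon length in kilobases, over the 10 mice. Slc3a2, the heavy chain that partners Slc7a5, stood at 32.9 ± 1.32 RPKM (SD) and Slc2a1 at 32.7 ± 2.15, and these neighbours did not differ beyond their spread. The tight junction claudin Cldn5 followed at 26.2 ± 2.52, then the endothelial membrane protein Itm2a at 25.6 ± 1.37, the surface antigen Ly6c1 at 22.9 ± 2.66 and Vtn, a matrix protein made by brain pericytes, at 20.5 ± 1.95. From Slc2a1 to Cldn5 and from Vtn to Slc7a5 the steps were larger than the SDs, while the neighbours from Cldn5 to Vtn overlapped. Among the receptors the endoglin gene Eng was highest at 5.33 ± 0.547 RPKM, and among the arterial genes Gkn3, which marks arterial cells of the brain, at 4.08 ± 0.587. The least abundant were Cd248 (0.579 ± 0.127), the arterial kinase Bmx (0.411 ± 0.119) and the peptidase Anpep (0.375 ± 0.122). Plvap was detected at 3.96 ± 0.622 RPKM. Ly6c1, Ly6a, Abcb1a, Sox17 and Egfl7 are less certain than the others, because 10% or more of their exon bases overlap another gene or 10% or more of their 50-base words occur in another gene (32.8% of the words of Ly6c1 and 18.97% of those of Ly6a).

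**Figure D1:**
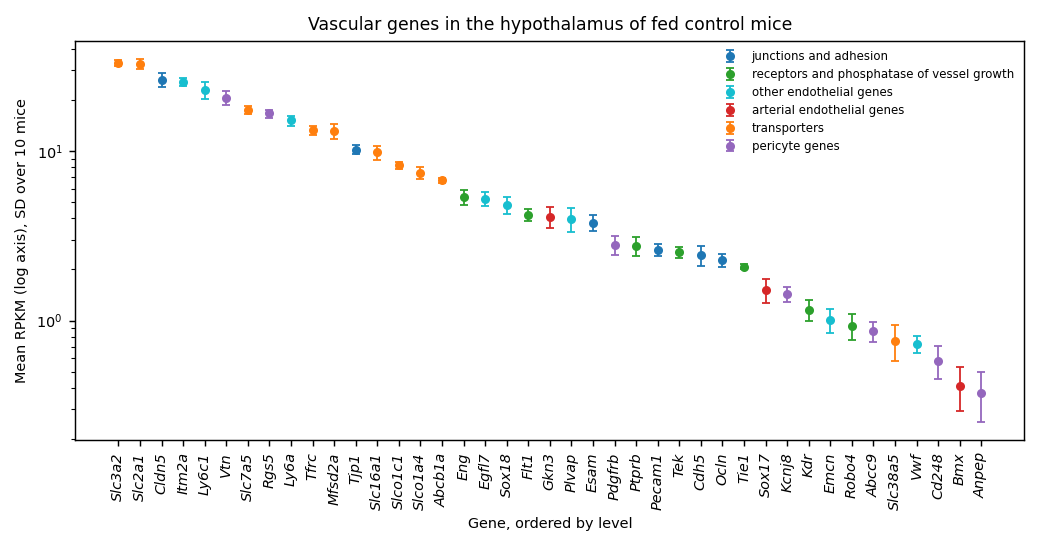
Mean RPKM (log axis) with SD over 10 fed control mice for each of the 41 genes, ordered by level and coloured by role. The transporters Slc3a2 (32.9 RPKM) and Slc2a1 (32.7) are highest, followed by Cldn5, Itm2a, Ly6c1 and Vtn, and the pericyte gene Anpep is lowest at 0.375 RPKM.

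Promoter sequence was examined for the listed genes that had a reference window, whether or not they moved on fasting. RefSeq (GRCm38.p6) windows of the 250 bases before the start site matched 29 of the 41 genes, with 34 windows. For 25 of the 34 the bases after the start site occurred in a GENCODE M21 transcript of the gene. Egfl7, Ocln, Ly6c1 and Tfrc entered with several windows. The windows of Slc2a1 and Mfsd2a, the transporters with the largest rises, and of Cldn5 and Kdr, a junction gene and a receptor gene that fell, are shown from 5′ to 3′, shortened where needed so that no base lies in an exon of the count tables, with capitals for a GC box (GGGCGG on either strand).
Slc2a1, chr4:119108495-119108710, plus strand: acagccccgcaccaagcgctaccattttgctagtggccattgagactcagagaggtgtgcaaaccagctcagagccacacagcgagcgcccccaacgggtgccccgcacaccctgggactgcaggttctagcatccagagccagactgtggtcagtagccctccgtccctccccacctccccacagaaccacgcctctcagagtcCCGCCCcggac
Mfsd2a, chr4:122961189-122961438, minus strand: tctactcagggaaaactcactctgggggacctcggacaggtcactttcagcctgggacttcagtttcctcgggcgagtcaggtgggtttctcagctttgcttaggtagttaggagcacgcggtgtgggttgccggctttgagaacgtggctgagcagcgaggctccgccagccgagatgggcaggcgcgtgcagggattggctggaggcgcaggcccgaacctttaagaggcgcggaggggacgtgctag
Cldn5, chr16:18776597-18776846, plus strand: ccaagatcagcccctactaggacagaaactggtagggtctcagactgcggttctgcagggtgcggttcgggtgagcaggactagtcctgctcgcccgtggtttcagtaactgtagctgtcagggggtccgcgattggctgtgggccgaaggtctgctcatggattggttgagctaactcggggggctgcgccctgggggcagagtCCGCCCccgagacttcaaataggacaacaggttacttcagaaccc
Kdr, chr5:75978459-75978705, minus strand: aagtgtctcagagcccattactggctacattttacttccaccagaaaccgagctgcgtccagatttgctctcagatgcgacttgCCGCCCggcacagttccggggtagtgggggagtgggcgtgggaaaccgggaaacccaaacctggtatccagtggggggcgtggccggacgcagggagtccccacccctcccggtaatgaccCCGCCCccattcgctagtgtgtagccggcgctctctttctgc
In mm10 the genes lie at chr4:119108711-119137983 (plus strand), chr4:122946850-122961188 (minus), chr16:18776847-18778260 (plus) and chr5:75932827-75978458 (minus). Both strands were searched for the GC box, the E-box (CACGTG), a glucocorticoid half-site (AGAACA), a TCF/LEF motif (ATCAAAG) and an ETS motif (CCGGAAG), none of which contains another. A GC box lay in 15 of the 34 windows (44.1%) and in 32.7% of the 32851 mouse promoters, with 1 copy in Cldn5 (45 bases before the start) and 2 each in Kdr (166 and 45 bases) and Slc2a1 (45 and 20 bases, the latter in the bases left out above). The half-site lay in 3 of 34 windows (8.82%, against 16.1% of all promoters), the E-box in 2 (5.88%, against 6.02%), and the TCF/LEF and ETS motifs in 1 each (2.94%, against 3.21% and 6.91%). None of these 4 other motifs lay in the windows shown. Such matches describe letters only.

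Fasting changed both transporters and endothelial identity genes in control mice. Of the 41 genes, 14 had an adjusted p under 0.05 (from the quasi-likelihood F-test of edgeR, Benjamini-Hochberg adjusted over all 18063 genes tested, the rule for every call here), against 3.88% of all genes. Only 4 of them were higher after fasting (2.2% of all genes): the transporters Slc2a1, Mfsd2a and Slc7a5 and the guidance receptor Robo4. The other 10 were lower (1.68% of all genes): Cldn5, the receptors Kdr, Tek and Tie1, the endothelial genes Itm2a, Sox18 and Emcn, the arterial gene Gkn3, the amino acid transporter Slc38a5 and the mural cell gene Cd248. The median log2 fold change was -0.18 over the 24 endothelial genes and -0.09 over all 41, beside 0.00 over all genes tested. In bulk tissue, fewer cells of a type and less RNA per cell cannot be told apart. Nor can the RNA of a listed gene be assigned to vessel cells rather than to other cells of the tissue.

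Among transporters, Slc2a1, which carries glucose across the endothelium, ranged from 105 to 133 (median 114) CPM in the 10 fed controls and from 147 to 193 (median 174) CPM in the 10 fasted ones. The groups did not overlap, and the log2 fold change was 0.58 ± 0.08 (SE, adjusted p = 2.65e-06). Mfsd2a, which carries docosahexaenoic acid as lysolipid and restrains vesicle transport, ranged from 26.1 to 35.4 (median 28.6) CPM fed and 35.003 to 74.8 (median 57.2) CPM fasted. Fasted mice were spread over more than a 2-fold range, with the lowest just under the highest fed mouse, and the log2 fold change was 0.87 ± 0.13 (adjusted p = 4.76e-05). For Slc7a5 the ranges were 56.7 to 69.1 (median 65.6) CPM fed and 68.6 to 87.6 (median 76.7) CPM fasted, which barely overlapped, with a log2 fold change of 0.23 ± 0.05 (adjusted p = 0.00214). Its partner Slc3a2 stood at 116 ± 4.66 CPM fed and 117 ± 5.75 CPM fasted (SD, n = 10 each; log2 fold change 0.01 ± 0.03, adjusted p = 0.934). Slc38a5, a glutamine carrier of the endothelium, was low throughout, at 0.954 to 2.46 (median 1.68) CPM fed and 0.485 to 1.85 (median 0.878) CPM fasted. Its groups overlapped, and it fell with a log2 fold change of -0.75 ± 0.21 (adjusted p = 0.0292).

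The other 6 transporters passed no test on fasting in controls. Abcb1a, the P-glycoprotein efflux pump, had a log2 fold change of -0.00 ± 0.05, the organic anion carriers Slco1a4 and Slco1c1 had -0.03 ± 0.05 and -0.19 ± 0.08, the transferrin receptor Tfrc had 0.02 ± 0.06, and the monocarboxylate carrier Slc16a1 had -0.14 ± 0.05. Slc16a1, which takes up lactate and ketone bodies, ranged from 37.5 to 51.3 (median 42.9) CPM in fed and from 35.97 to 44.5 (median 37.9) CPM in fasted controls, and these groups overlapped over most of their range (adjusted p = 0.131).

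**Figure D2:**
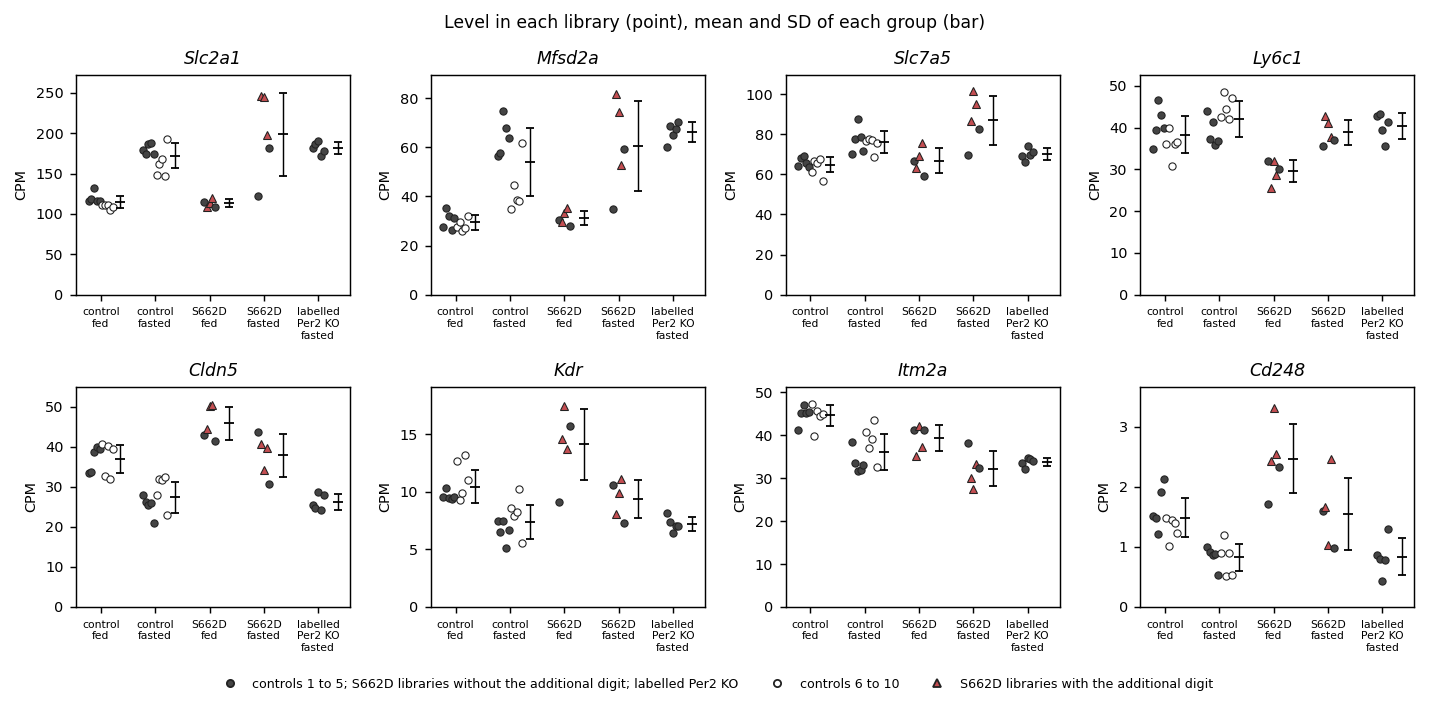
CPM of 8 genes in each library (points) with the mean and SD of each group (bars), with controls 1 to 5 filled, controls 6 to 10 open and S662D libraries with the additional digit as triangles. Slc2a1 is higher in every fasted than in every fed control, Cldn5 and Kdr are lower after fasting with some overlap, and Cldn5 is higher in every fed S662D library than in every fed control.

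Of the 6 junction and adhesion genes, Cldn5 alone passed the test. It ranged from 31.9 to 40.7 (median 39.01) CPM in fed and from 21.1 to 32.4 (median 27.1) CPM in fasted controls, so that the highest fasted mouse lay just above the lowest fed one, and its log2 fold change was -0.43 ± 0.07 (adjusted p = 4.39e-05). The other 5 passed no test. Log2 fold changes were 0.04 ± 0.08 for occludin (Ocln), -0.08 ± 0.06 for the scaffold ZO-1 (Tjp1), -0.16 ± 0.09 for VE-cadherin (Cdh5), -0.09 ± 0.06 for Pecam1 and 0.03 ± 0.07 for Esam, the last 2 being adhesion molecules of endothelial contacts. Pecam1, for example, ranged from 14.2 to 17.8 (median 16.5) CPM fed and 13.9 to 17.1 (median 15.2) CPM fasted.

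Among the growth receptors, 3 of 7 fell and 1 rose. Tie1, an orphan partner of the angiopoietin receptor, ranged from 9.81 to 10.9 (median 10.2) CPM fed and 6.78 to 9.695 (median 7.99) CPM fasted. These groups did not overlap (log2 fold change -0.33 ± 0.07, adjusted p = 0.00302). Tek, the angiopoietin receptor Tie2, ranged from 10.5 to 13.3 (median 11.96) CPM fed and 6.33 to 11.97 (median 8.47) CPM fasted, with overlap (log2 fold change -0.42 ± 0.09, adjusted p = 0.0025). Kdr, the main signalling receptor for vascular endothelial growth factor, ranged from 9.28 to 13.2 (median 9.75) CPM fed and 5.16 to 10.2 (median 7.48) CPM fasted, again with overlap (log2 fold change -0.49 ± 0.11, adjusted p = 0.00235). The decoy receptor Flt1 ranged from 48.2 to 65.9 (median 56.3) CPM fed and 45.4 to 54.2 (median 49.1) CPM fasted and missed the threshold (log2 fold change -0.19 ± 0.07, adjusted p = 0.0988), as did Ptprb, the phosphatase that restrains Tek (-0.21 ± 0.08), and Eng (-0.26 ± 0.11). Robo4 rose from 4.95 ± 0.866 to 6.45 ± 0.581 CPM (SD, n = 10 each; log2 fold change 0.38 ± 0.11, adjusted p = 0.0364), with overlapping groups, and kept its call in 16 of 28 alternative analyses.

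Among the other endothelial genes, Itm2a ranged from 39.7 to 47.4 (median 45.2) CPM fed and 31.6 to 43.5 (median 35.3) CPM fasted (log2 fold change -0.30 ± 0.05, adjusted p = 0.00016). Sox18, a transcription factor of endothelial fate, ranged from 6.42 to 9.34 (median 7.61) CPM fed and 4.41 to 6.62 (median 5.59) CPM fasted (log2 fold change -0.49 ± 0.12, adjusted p = 0.00817). Both had overlapping groups, Sox18 only at the edge. Emcn, a sialomucin typical of capillaries and veins, fell from 5.45 ± 0.854 to 4.13 ± 0.710 CPM (SD, n = 10 each; log2 fold change -0.40 ± 0.10, adjusted p = 0.016). The surface antigens Ly6c1 and Ly6a had positive log2 fold changes of 0.13 ± 0.06 and 0.13 ± 0.05 that missed the threshold (adjusted p = 0.305 and 0.151). So did Vwf, the von Willebrand factor stored in larger vessels, at 0.18 ± 0.11, while Egfl7 and Plvap had -0.12 ± 0.07 and 0.03 ± 0.09.

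The arterial gene Gkn3 ranged from 2.76 to 4.16 (median 3.53) CPM fed and 1.02 to 4.13 (median 1.55) CPM fasted. Of the fasted mice 8 lay below every fed mouse, and the highest lay within the fed range, and the log2 fold change was -0.91 ± 0.21 (adjusted p = 0.00435). The arterial transcription factor Sox17 and the kinase Bmx had -0.24 ± 0.11 and 0.14 ± 0.20 and passed no test. Among the 7 pericyte genes only Cd248, a membrane protein of mural and stromal cells, fell. It ranged from 1.01 to 2.12 (median 1.46) CPM fed and 0.518 to 1.198 (median 0.891) CPM fasted with a narrow overlap (log2 fold change -0.84 ± 0.19, adjusted p = 0.00325). Pdgfrb, the receptor that recruits pericytes, ranged from 12.99 to 17.7 (median 15.4) CPM fed and 12.2 to 17.1 (median 14.3) CPM fasted, nearly the same span (log2 fold change -0.08 ± 0.09). The other 5 had log2 fold changes from -0.21 (Anpep) and -0.20 (Vtn) over -0.07 for the G protein regulator Rgs5 to 0.09 and 0.19 for Kcnj8 and Abcc9, the paired subunits of the pericyte potassium channel.

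**Figure D3:**
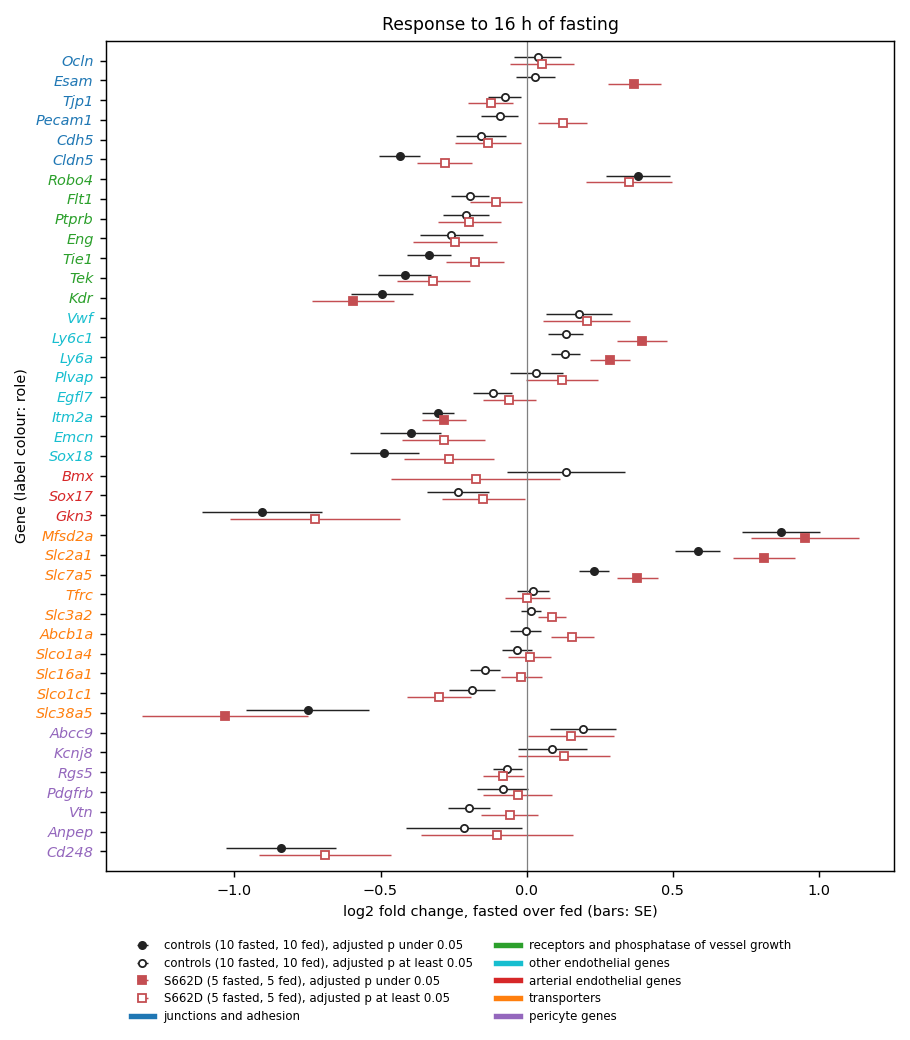
Log2 fold change of fasted over fed mice with its SE for the 41 genes, grouped by role, in controls (circles) and S662D mice (squares), filled where the adjusted p was under 0.05. Slc2a1, Mfsd2a and Slc7a5 are filled on the right for both genotypes, and Kdr, Itm2a and Slc38a5 on the left for both.

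Within the sets of controls, all 14 called genes had the same sign of fold change in mice 1 to 5 and in mice 6 to 10. That agreement was favoured in advance, because the 14 were called from these same mice. The sizes and calls were then set side by side. With controls 1 to 5 alone 12 of the 41 genes were called, and with controls 6 to 10 alone 2 were, Slc2a1 and Ly6c1 (7.4% and 1.71% of all genes). The log2 fold change of Slc2a1 was 0.58 and 0.58 in the first and second set, that of Mfsd2a 1.07 and 0.61, that of Cldn5 -0.55 and -0.33, that of Kdr -0.54 and -0.46, and that of Gkn3 -1.34 and -0.60. A test of the difference itself called 2 of the 41 genes, beside 13.6% of all genes: Ly6c1 (-0.07 and 0.33, adjusted p = 0.0084) and Slc16a1 (-0.29 and -0.00, adjusted p = 0.0343). Neither is among the 14, and the call of Slc16a1 was lost in 9 of the 20 analyses that left out 1 library. Averaged over feeding state, 0 of 41 genes differed between the sets by edgeR (0.117% of all genes), and 9 of 41 had an unadjusted p under 0.05 (10.5%).

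**Figure D4:**
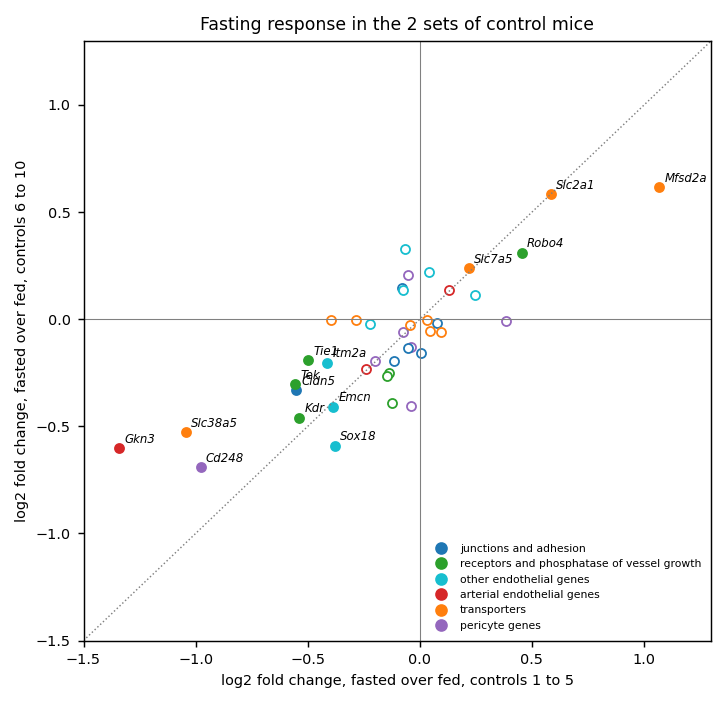
Log2 fold change on fasting in control mice 1 to 5 (horizontal) and 6 to 10 (vertical) for the 41 genes, coloured by role, with a dotted line of equality and filled, named points for the 14 genes called over all 10 mice a group. All 14 lie at the lower left or upper right of the zero lines, with Slc2a1 on the line at 0.58 and Mfsd2a at 1.07 and 0.61. The 14 were called from these same mice, which favours a shared sign.

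Other genes of the same pathways were read from lists chosen by function, with earlier results of these data known. Of 22 genes of Wnt signalling at the barrier, 9 fell and 2 rose on fasting in controls (median -0.11). Over all genes tested, 1.68% fell and 2.2% rose. The ligands Wnt7a and Ndp had log2 fold changes of -0.63 (adjusted p = 2.56e-05) and -0.41 (6.03e-05), the target gene Apcdd1 had -0.35 (2.27e-05), and the receptor gene Fzd4 had 0.45 (0.00017). Ligand and target genes were thus among those that fell and a receptor among those that rose. Of 26 tested partners in growth factor, angiopoietin, Notch and platelet-derived growth factor signalling, 1 rose (the receptor Notch4, 0.64) and 5 fell, among them Hey1 (-0.17), S1pr1 (-0.17) and Jag1 (-0.26). Vegfa, the ligand of Kdr, did not pass the test (0.01, adjusted p = 0.968).

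The further lists are likewise read beside the 2.2% of all genes that rose and the 1.68% that fell. Of 27 further transporters and receptors of the barrier, 2 rose and 4 fell, among them the taurine carrier Slc6a6 (-0.23) and the fatty acid transporter Slc27a1 (0.17). Among 31 further junction and endothelial genes 4 rose, including the shear-induced factor Klf2 (0.49) and Ramp2 (0.35), and 5 fell, including Mcam (-0.49) and caveolin Cav1 (-0.33). Of 11 further arterial genes Fbln5 rose (0.55) and Alpl (-0.49) and Unc5b (-0.28) fell, of 8 tested venous and activated genes Il1r1 rose (0.47), and of 14 further pericyte genes P2ry14 rose (0.49). All 10 glucocorticoid-induced genes rose (median 0.98), among them Sgk1 (1.87), Tsc22d3 (0.76), Plin4 (1.85) and Cdkn1a (2.64), and their part in the vascular changes was not tested.

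Markers of neighbouring cells were read in the same way on fasting in controls, beside 3.88% of all genes called. Smooth muscle markers (7 genes summed) spanned 30.9 to 38.3 CPM in fed and 30.6 to 37.8 CPM in fasted controls, red blood cell markers (5 genes) 327 to 634 and 375 to 795 CPM, and perivascular macrophage markers (5 genes) 3.24 to 7.11 and 4.05 to 8.36 CPM, with 0 genes called in these 3 lists. Microglia markers (6 genes) spanned 187 to 216 CPM fed and 162 to 207 CPM fasted, and 2 of 6 fell, Cx3cr1 (-0.41) and P2ry12 (-0.34). Fibroblast markers (1 of 9 called, Col1a2), astrocyte markers (2 of 6), oligodendrocyte markers (1 of 5) and neuron markers (0 of 5) were read in the same way. Choroid plexus markers (6 genes summed) spanned 19.9 to 959.6 CPM fed (median 34.1) and 19.4 to 1540.3 CPM fasted (median 27.7), with 0 of 6 called. In astrocytes Aqp4, the water channel of the vessel endfeet, fell (-0.33, adjusted p = 5.96e-06) and Aldh1l1 rose (0.20). The part of these cells in the vascular result was not tested.

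In S662D mice fasting called 9 of the 41 genes, against 2.64% of all genes. The 6 that rose (1.8% of all genes) were Slc2a1, Mfsd2a, Slc7a5, Ly6c1, Ly6a and Esam, and the 3 that fell (0.83%) were Kdr, Itm2a and Slc38a5. The median over the 41 was -0.06, beside 0.00 over all genes. Slc2a1 was at 115, 109, 114, 120.4 and 108 CPM in fed replicates 1 to 5 and at 123, 246, 245, 198 and 182 CPM in fasted replicates 1 to 5. The groups did not overlap, although fasted replicate 1 lay just above the fed mice (log2 fold change 0.81 ± 0.11, adjusted p = 6.22e-06). Mfsd2a was at 30.5, 29.6, 33.2, 35.1 and 27.9 CPM fed and at 34.8, 81.8, 74.3, 52.7 and 59.3 CPM fasted, and here fasted replicate 1 lay within the fed range (log2 fold change 0.95 ± 0.18, adjusted p = 0.00168). Slc7a5 was at 66.4, 63.4, 69.3, 75.8 and 59.1 CPM fed and 69.4, 86.8, 101, 94.97 and 82.5 CPM fasted, with the same replicate lowest (log2 fold change 0.38 ± 0.07, adjusted p = 0.000397). Slc16a1 was at 42.5, 48.4, 46.3, 42.2 and 42.7 CPM fed and 48.9, 42.6, 42.01, 46.3 and 39.7 CPM fasted, which overlapped (log2 fold change -0.02 ± 0.07).

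The surface antigens separated by feeding state in S662D mice. Ly6c1 was at 31.9, 25.4, 31.97, 28.7 and 30.1 CPM fed and 35.6, 42.8, 41.1, 37.7 and 37.05 CPM fasted (log2 fold change 0.40 ± 0.08, adjusted p = 0.00311), and Ly6a at 15.5, 12.2, 13.7, 14.5 and 15.9 CPM fed and 17.5, 17.6, 18.1, 17.3 and 16.7 CPM fasted (0.29 ± 0.07, adjusted p = 0.0107). Neither gene's groups overlapped. Esam was at 9.72, 10.3, 11.04, 9.78 and 10.9 CPM fed and 10.6, 15.5, 13.02, 16.4 and 11.4 CPM fasted, with overlap through fasted replicate 1 (log2 fold change 0.37 ± 0.09, adjusted p = 0.0139). Kdr was at 9.16, 14.6, 17.4, 13.7 and 15.7 CPM fed and 10.6, 8.04, 9.94, 11.1 and 7.29 CPM fasted, with overlap through fed replicate 1 (log2 fold change -0.59 ± 0.14, adjusted p = 0.00948). Itm2a was at 41.3, 35.1, 42.2, 37.2 and 41.2 CPM fed and 38.3, 30.1, 27.4, 33.2 and 32.3 CPM fasted (log2 fold change -0.28 ± 0.08, adjusted p = 0.028), again overlapping. Slc38a5 spanned 1.54 to 2.48 CPM fed and 0.312 to 1.36 CPM fasted without overlap (log2 fold change -1.03 ± 0.28, adjusted p = 0.0338). The calls of Slc38a5 and Itm2a were kept in 10 and 11 of 19 alternative analyses. Fitted on the S662D groups alone, the calls of Mfsd2a, Kdr, Ly6a, Esam, Itm2a and Slc38a5 were lost.

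Several genes that fell in controls missed the threshold in S662D mice with fold changes of the same sign. Cldn5 had -0.28 ± 0.09 (adjusted p = 0.116), Tie1 -0.18 ± 0.10, Tek -0.32 ± 0.12, Sox18 -0.27 ± 0.15, Gkn3 -0.72 ± 0.29 and Cd248 -0.69 ± 0.23. The difference between the responses of the 2 genotypes was tested as an interaction and called 0 of the 41 genes and 0.0% of all genes. At an unadjusted p under 0.05 it had 3 of the 41 and 6.37% of all genes, and DESeq2 also called 0 of the 41 and 0.0% of all genes. The median interaction over the 41 genes was 0.08, and the largest among the transporters that rose was 0.23 ± 0.13 for Slc2a1 (adjusted p = 0.797). For Ly6c1 it was 0.26 ± 0.10 (adjusted p = 0.766). With controls 1 to 5 alone 1 of the 41 genes, Ly6c1, was called in this test, at 0.46 (2.73% of all genes).

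Only the S662D libraries with the additional digit gave calls on fasting by themselves: 8 of the 41 genes with them (3.71% of all genes) and 0 without them, where 2 mice a group remained, 0.0373% of all genes were called and 9 of 41 had an unadjusted p under 0.05. Slc2a1 had log2 fold changes of 1.01 with and 0.45 without the digit, Mfsd2a 1.10 and 0.69, Ly6c1 0.51 and 0.23, and Kdr -0.65 and -0.48. The signs were the same, which was favoured in advance, because these genes were called from the same mice. The test of the difference by the digit with edgeR called 0 of 41 genes and 0.0% of all genes (5 of 41 and 7.5% at an unadjusted p under 0.05). In other lists, Wnt7a fell (-0.82) and Fzd4 rose (0.48) among 3 of 22 Wnt genes called, beside 2.64% of all genes. Notch4 rose (0.64), and all 10 glucocorticoid-induced genes rose (median 1.12). Red blood cell markers spanned 384 to 553 CPM in fed and 462 to 1041 CPM in fasted S662D mice, with 0 of 5 called, smooth muscle markers 35.7 to 46.8 and 34.9 to 54.97 CPM with 0 of 6 tested called, and microglia markers 185 to 213 and 164 to 208 CPM with 1 of 6 called, Cx3cr1 (-0.43). Their part in the result was not tested.

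Between genotypes, several junction genes and growth receptors were higher in S662D mice and the surface antigens lower, and the number of calls depended on which libraries were used. The fed comparison called 7 of the 41, against 4.69% of all genes. Higher in S662D (3.12% of all genes) were Cldn5, Tjp1, Flt1, Kdr and Cd248, and lower (1.57%) were Ly6c1 and Ly6a. The fasted comparison called 10 of the 41, against 5.57% of all genes. Higher (3.35%) were Cldn5, Cdh5, Pecam1, Esam, Flt1, Tie1, Sox18, Slc7a5 and Cd248, and lower (2.23%) was Ly6a. The median over the 41 genes was 0.05 fed and 0.16 fasted, beside -0.01 and -0.00 over all genes. These comparisons use the same mice as those on fasting, so their values are not independent of them. Mitochondrial counts made up 6.69 to 7.37% of the total in fed controls, against 6.24 to 6.82% when fed mice carried S662D, and in fasted S662D mice 6.85 to 6.93% with the digit and 7.698 and 8.27% without it. Thalamic and cortical neuron markers (5 genes summed) spanned 444 to 665 CPM in fed S662D mice, against 429 to 522 CPM in fed controls, and 470.4 to 624.5 against 435 to 519 CPM after fasting. Their part in the differences was not tested.

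Among junction genes, Cldn5 was at 42.96, 44.5, 50.1, 50.4 and 41.6 CPM in fed S662D mice, all above the 31.9 to 40.7 CPM of fed controls (log2 fold change 0.31 ± 0.08, adjusted p = 0.0242). In fasted S662D mice it was at 43.7, 40.8, 34.2, 39.8 and 30.6 CPM against 21.1 to 32.4 CPM in fasted controls, where replicate 5 overlapped (0.46 ± 0.08, adjusted p = 0.00137). In fasted mice its fold change was 0.44 from the libraries without the digit and 0.48 from those with it. In fed S662D mice the libraries without the digit, replicates 1 and 5, were the lowest, at 42.96 and 41.6 CPM. The fed fold change ranged from 0.19 to 0.38 over the alternative analyses, and its call was kept in 20 of 27. Cdh5 was at 10.2, 14.5, 12.98, 14.1 and 11.3 CPM in fed and 10.9, 12.7, 11.9, 13.98 and 8.65 CPM in fasted S662D mice, against 8.896 to 12.7 and 7.49 to 10.8 CPM in controls, with overlap in both states. Its log2 fold change was 0.32 ± 0.10 fed (adjusted p = 0.0531) and 0.34 ± 0.10 fasted (0.0342). Pecam1 was at 17.4, 17.1, 21.3, 21.6 and 15.4 CPM in fasted S662D mice, with replicates 3 and 4 well above the other 3 (log2 fold change 0.28 ± 0.07, adjusted p = 0.0203), and at 16.2, 17.4, 17.7, 18.5 and 14.9 CPM in fed ones. Esam had 0.27 ± 0.08 in fasted mice (adjusted p = 0.034) and Tjp1 0.22 ± 0.07 in fed mice (adjusted p = 0.0444), all groups overlapping with controls. Of 27 alternative analyses, 14 kept the call of Cdh5 in fasted mice, 13 that of Esam and 12 that of Tjp1. Tjp1 in fed S662D replicates 1 and 5, without the digit, was at 75.2 and 84.6 CPM, within the 71.7 to 86.8 CPM of fed controls.

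Among receptors, Flt1 was at 57.8, 73.7, 73.4, 76.3 and 62.03 CPM in fed and 54.9, 61.5, 70.8, 82.03 and 51.1 CPM in fasted S662D mice, with replicates 1 and 5 lowest in both states. Against 48.2 to 65.9 and 45.4 to 54.2 CPM in controls the log2 fold changes were 0.28 ± 0.08 (adjusted p = 0.0306) and 0.37 ± 0.08 (0.0047). Kdr was higher in fed S662D mice (0.44 ± 0.12, adjusted p = 0.0305) and had 0.33 ± 0.13 in fasted ones (adjusted p = 0.114). Tie1 was at 9.46, 10.8, 12.6, 12.4 and 10.97 CPM fed and 9.59, 9.51, 8.696, 13.4 and 8.83 CPM fasted, with replicate 4 apart from the rest in fasted mice, and was higher than in controls after fasting (0.30 ± 0.09, adjusted p = 0.034). The call of Tie1 was kept in 14 of 27 alternative analyses. Tek, at 10.1, 12.7, 12.5, 11.8 and 11.2 CPM fed and 10.9, 6.73, 9.59, 12.5 and 7.44 CPM fasted, overlapped the controls in both states and passed no test (-0.03 ± 0.11 and 0.07 ± 0.11). Eng missed the threshold with 0.36 ± 0.13 fed and 0.37 ± 0.13 fasted (adjusted p = 0.0887 and 0.0799).

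The surface antigen Ly6a was lower in S662D mice in both feeding states. Its 5 fed S662D values lay below the 16.3 to 20.2 CPM of all 10 fed controls. Its 5 fasted S662D values lay below the 18.1513 to 21.5 CPM of all 10 fasted controls, but the highest, at 18.1498 CPM, nearly tied with the lowest control. The log2 fold changes were -0.35 ± 0.06 (adjusted p = 0.000656) and -0.20 ± 0.06 (0.0405). The fed call was kept in 23 of 27 alternative analyses and the fasted call in 8 of 27. Ly6c1 was lower in fed mice, against 30.7 to 46.6 CPM in controls with slight overlap (-0.38 ± 0.08, adjusted p = 0.00411), and had -0.11 ± 0.07 in fasted mice (adjusted p = 0.395). Sox18 was at 8.75, 10.8, 9.11, 12.4 and 6.81 CPM in fed and 5.08, 9.86, 9.45, 10.7 and 5.48 CPM in fasted S662D mice. In the fasted group replicates 1 and 5 lay within the control range and replicates 2, 3 and 4 above it (0.53 ± 0.14, adjusted p = 0.019). Gkn3 was at 2.93, 2.35, 1.66, 2.94 and 2.79 CPM fed and 2.54, 0.735, 1.29, 1.61 and 1.45 CPM fasted and passed no test against controls (-0.46 ± 0.24 and -0.28 ± 0.26).

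Of the transporters only Slc7a5 differed from controls, in fasted mice (0.19 ± 0.06, adjusted p = 0.0466), and this call was kept in 8 of 27 alternative analyses and in 4 of the 15 that left out 1 library. Slc2a1 had -0.02 ± 0.09 fed and 0.21 ± 0.09 fasted, and Mfsd2a 0.08 ± 0.16 and 0.17 ± 0.15. Among pericyte genes Cd248 was at 1.72, 2.43, 3.31, 2.54 and 2.34 CPM in fed and 1.59, 1.66, 1.03, 2.46 and 0.978 CPM in fasted S662D mice, higher than the 1.01 to 2.12 and 0.518 to 1.198 CPM of controls with overlap in each state (0.73 ± 0.20, adjusted p = 0.025, and 0.88 ± 0.22, adjusted p = 0.0125). All 7 pericyte genes had positive log2 fold changes in both states, with medians of 0.13 fed and 0.25 fasted, but Cd248 alone passed the test. In fasted mice the S662D libraries without the digit, replicates 1 and 5, lay within the control range for every pericyte gene except Cd248. Kcnj8, for example, was at 2.78 and 3.29 CPM in them, against 2.61 to 5.38 CPM in fasted controls. Pdgfrb was at 14.2, 18.6, 20.1, 20.1 and 14.5 CPM fed and 13.5, 15.97, 20.3, 21.9 and 14.8 CPM fasted, with replicates 1 and 5 in the control range in both states and replicate 2 also after fasting (0.20 ± 0.10 and 0.25 ± 0.10).

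The S662D libraries were then compared by the digit. Averaged over feeding state, S662D libraries with the digit were higher than those without it for 16 of the 41 genes and lower for 0. Of all genes 16.1% were called, with 10.3% higher and 5.77% lower. The largest were Sox18 (0.70 ± 0.11, adjusted p = 1.04e-05), Eng (0.68 ± 0.08, 9.71e-08), Robo4 (0.55 ± 0.13, 0.00169) and Vwf (0.54 ± 0.13, 0.00313), followed by Abcc9 (0.49), Pdgfrb (0.45), Cdh5 (0.39), Flt1 (0.38), Sox17 (0.36) and Slc2a1 (0.32). Cldn5 (0.12 ± 0.09, adjusted p = 0.415), Kdr (0.21 ± 0.13) and Ly6c1 (0.02 ± 0.07) were not called.

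Against controls, the libraries with the digit gave 16 of 41 calls in fed and 24 of 41 in fasted mice (16.9% and 17.1% of all genes). Those without it, 2 mice a state, gave 0 and 0 (0.0854% and 0.112%), with 2 and 5 at an unadjusted p under 0.05. A term for the digit left 0 and 0 (0.127% and 0.111%, 7 and 3 unadjusted). It compares S662D with controls at the level of the libraries without the digit, so it is not a separate check. Controls 6 to 10 as the only controls also gave 0 and 0 (0.185% and 0.269%, 8 and 24 unadjusted), whereas controls 1 to 5 gave 7 and 8 (9.79% and 9.45%). Without the digit the log2 fold change in fasted mice was 0.44 for Cldn5, 0.63 for Cd248, 0.27 for Kdr, 0.19 for Tie1 and -0.22 for Ly6a, but 0.10 for Flt1, 0.10 for Pecam1, -0.07 for Sox18 and 0.00 for Slc7a5. With the digit these were 0.48, 1.05, 0.38, 0.38 and -0.18, and 0.53, 0.39, 0.85 and 0.31, in the same order. Leaving out single S662D mice moved the fed count to 2 without replicate 2, 3 or 4 and to 10 without replicate 1 or 5. The fasted count moved to 3, 4 and 1 without replicates 2, 3 and 4, and to 18 and 16 without replicates 1 and 5.

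**Figure D5:**
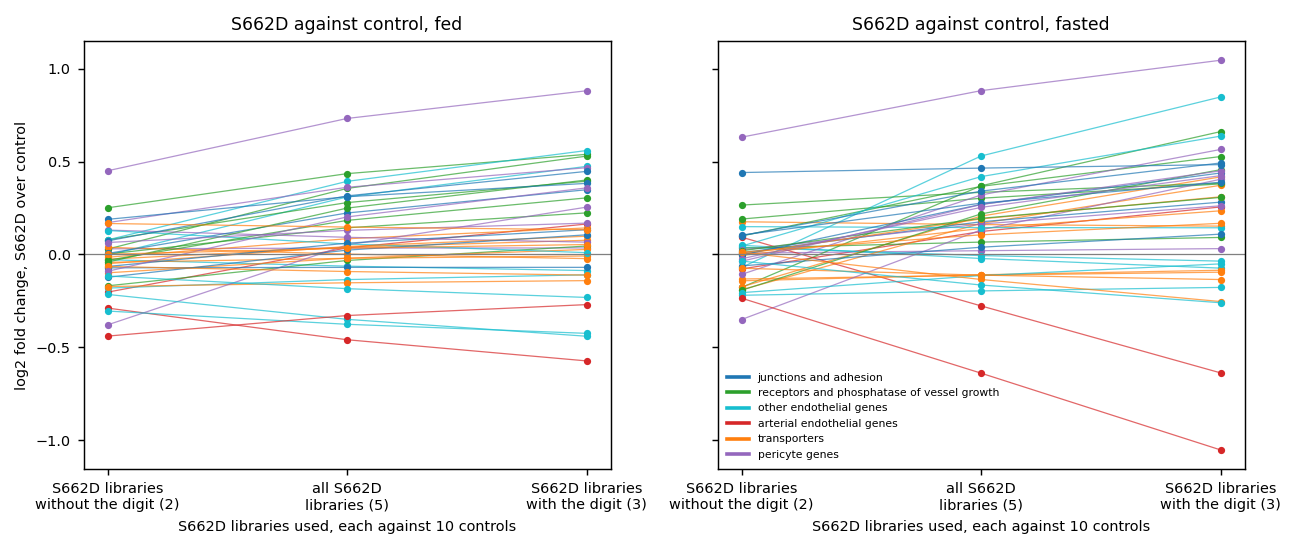
Log2 fold change of S662D over control mice in fed (left) and fasted (right) animals for the 41 genes, coloured by role, from the 2 S662D libraries without the digit, all 5, and the 3 with it, each against 10 controls. Most lines rise to the right, as for Sox18 in fasted mice from -0.07 to 0.85, while the Cldn5 line in fasted mice stays nearly level from 0.44 to 0.48.

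Other lists were read between genotypes beside 4.69% of all genes called in fed and 5.57% in fasted mice. In fed mice Lrp5 (0.28) of 22 Wnt genes, Notch3 (0.38) of 26 growth factor partners and Cspg4 (0.40), the NG2 proteoglycan of pericytes and glial precursors, of 14 further pericyte genes were higher. In fasted mice Nkd1 (0.35), Ephb4 (0.36), Cspg4 (0.38) and Lamc3 (0.64) were. The efflux pump Abcc4 was higher in both (0.36 and 0.43). These genes are named singly, and nothing about their lists as wholes is read from them. In smooth muscle 1 of 6 tested markers was higher in each state, Mylk (0.34 and 0.29), with summed markers at 35.7 to 46.8 CPM in fed and 34.9 to 54.97 CPM in fasted S662D mice. In fasted mice 0 of 5 red blood cell markers were called, with a median of 0.40. The part of these in the vascular values was not tested.

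The labelled knockout did not differ detectably from fasted controls. With edgeR 0 of 41 genes were called, against 0.0277% of all genes. At an unadjusted p under 0.05 it was 4 of 41 and 6.07% of all genes, and DESeq2 called 0 of 41 and 0.0388% of all genes. Slc2a1 was at 182, 186, 190.3, 172 and 178 CPM, Mfsd2a at 59.9, 68.7, 65.2, 67.3 and 70.4 CPM and Slc7a5 at 68.9, 66.2, 74.2, 69.8 and 71.3 CPM, all within or next to the range of fasted controls (log2 fold changes 0.08 ± 0.09, 0.30 ± 0.16 and -0.12 ± 0.06). Itm2a was at 33.5, 32.2, 34.6, 34.4 and 34.1 CPM and Kdr at 8.15, 7.38, 6.41, 7.02 and 7.06 CPM (-0.10 ± 0.07 and -0.04 ± 0.13). Gkn3 had the largest fold change, at 1.34, 0.805, 1.19, 0.394 and 0.543 CPM (-1.15 ± 0.31, adjusted p = 0.417), and against controls 6 to 10 alone it was the 1 gene called (-1.51, against 0.556% of all genes).

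Against fasted S662D mice the labelled knockout differed for 13 of the 41 genes (7.34% of all genes). It was lower for 12 (4.72%), namely Cldn5, Tjp1, Cdh5, Pecam1, Flt1, Tie1, Ptprb, Vwf, Slc7a5, Slc16a1, Pdgfrb and Cd248, and higher for Ly6a (2.61%), with a median over the 41 of -0.17, beside 0.01 over all genes. This comparison uses the same S662D mice as that with controls. Over 19 alternative analyses the calls of Cldn5, Tie1 and Slc7a5 were kept in 17. That of Tjp1 was kept in 7, and those of Ptprb, Vwf and Cd248 in 8. Cldn5 was at 25.5, 24.7, 28.7, 24.3 and 27.95 CPM, below all 5 fasted S662D mice (-0.53 ± 0.10, adjusted p = 0.00113). Tie1 at 6.33, 6.11, 8.09, 7.33 and 6.68 CPM also lay below all of them (-0.53 ± 0.10, adjusted p = 0.00175), as did Slc16a1 at 39.3, 34.4, 35.6, 36.2 and 37.7 CPM (-0.26 ± 0.07, adjusted p = 0.0182), while Ly6a at 22.4, 22.1, 19.3, 19.004 and 21.1 CPM lay above all of them (0.25 ± 0.07, adjusted p = 0.0175). Groups overlapped for Flt1, at 41.4, 44.6, 48.8, 48.5 and 51.99 CPM (-0.44 ± 0.09, adjusted p = 0.00287).

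The remaining named genes overlapped as well. Pecam1 was at 13.9, 15.5, 12.5, 13.6 and 17.7 CPM in the labelled knockout (-0.33 ± 0.09), Cdh5 at 7.61, 8.28, 8.85, 9.42 and 9.72 CPM (-0.40 ± 0.12) and Cd248 at 0.858, 0.805, 0.434, 0.789 and 1.303 CPM (-0.86 ± 0.26). Pdgfrb was at 11.9, 11.9, 12.98, 11.99 and 14.6 CPM (-0.44 ± 0.12, adjusted p = 0.0205). With the S662D libraries that carry the digit 23 of 41 genes were called (16.2% of all genes), with those that do not 0 (0.139%, 8 at an unadjusted p under 0.05), and with a term for the digit 0 (0.233%, 9 unadjusted). Here too the term is not a check separate from the libraries without the digit. The count was 5 without fasted S662D replicate 4 and 5 without labelled knockout replicate 2.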

How the data were processed

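The deposited tables give raw read counts per gene, 1 table per library. Per the submitters' processing notes and the file headers, the authors aligned reads with STAR 2.7.10b and counted them over exons with featureCounts 2.0.1, on mm10 with GENCODE gene models. All 35 libraries (17959586 to 37027342 counts each) entered 1 edgeR 4.0.16 quasi-likelihood fit (R 4.3.3, limma 3.58.1) with TMM scaling after filterByExpr with a count minimum of 10, which kept 18063 of 49568 genes. Adjusted p-values follow Benjamini-Hochberg over all genes tested, with a threshold of 0.05, and 7 comparisons were made. The script was tested on simulated counts. RPKM used the exon lengths in the tables. Each sample's group was taken from its label.

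The 41 genes, the other lists and the tests were chosen with earlier results of these data known. All 41 are accounted for by role. Values in each library, or their range, are given for at most 4 called genes per role, and of every other list at most 4 called genes per comparison are named, smallest adjusted p first. Other genes, such as Slc38a5, are given by range or mean. Comparisons between sets of control or S662D libraries were added after seeing the data. Alternatives were DESeq2 1.42.0, other scalings, no filter, a replicate block, library sets, only the groups compared, and each library left out. Count depth limits the precision of low genes such as Cd248, Bmx and Anpep. Promoter windows came from RefSeq, and Figf, Cavin1 and Cavin2 were not analysed here.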

Additional observations from a re-analysis of the deposited data

Results flagged for a closer look

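Of 95 groups of libraries examined for a single library apart from the others, 3 held one, and chance gives about 1 in 20. Tie1 stood at 13.4 CPM in fasted S662D replicate 4, with the nearest of the other 4 at 9.59 CPM. Slc2a1 stood at 132.6 CPM in fed control 3, with the nearest at 119.0 CPM. Slc7a5 stood at 87.6 CPM in fasted control 3, with the nearest at 78.7 CPM.

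The fasting response of 2 of the 41 genes, against 13.6% of all genes, differed between the sets of controls in a test of the difference itself (edgeR, Benjamini-Hochberg adjusted). In controls 6 to 10 the log2 response was higher than in controls 1 to 5 by 0.39 for Ly6c1 (adjusted p = 0.0084) and by 0.28 for Slc16a1 (adjusted p = 0.0343). Over 24 alternative analyses the call was kept in 24 for Ly6c1 and in 15 for Slc16a1.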

How the results depend on the processing

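The number of the 41 genes called depended most on which libraries were used. Fasting in controls gave 14, and 2 with controls 6 to 10. Fasting in S662D gave 9, 0 without the digit and 3 (Slc2a1, Slc7a5 and Ly6c1) with only the groups compared. The interaction gave 0, and 1 with controls 1 to 5. S662D against control gave 7 in fed mice, 0 with controls 6 to 10, 0 without the digit, 16 with it, 0 with a term for it, 11 with only the groups compared, and 0 with controls 6 to 10 and no digit. In fasted mice it gave 10, 6 with library size only, 0 with controls 6 to 10, 0 without the digit, 24 with it, 0 with a term for it, 2 with only the groups compared, and 0 with controls 6 to 10 and no digit. The labelled knockout gave 0 against controls and 1 with controls 6 to 10. Against S662D it gave 13, 0 without the digit, 23 with it, 0 with a term for it and 4 with only the groups compared. With no filter the control sets gave 4 averaged over feeding state and 4 in their fasting response, and the fasting response by digit gave 1. The cause of these moves was not tested.

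Leaving out 1 library at a time gave 12 to 14 calls for fasting in controls, 6 to 10 for fasting in S662D, 0 to 0 for the interaction, 2 to 10 and 1 to 18 for S662D against control in fed and fasted mice, 0 to 0 and 5 to 16 for the labelled knockout against control and S662D, 0 to 1 and 1 to 5 for the control sets and their fasting response, and 11 to 17 and 0 to 1 for the digit and its fasting response. Direction reversed for Tjp1 in fed S662D mice (-0.043 with controls 6 to 10 and no digit), and in fasted ones for Esam (-0.00334 without the digit, -0.00128 with controls 6 to 10 and no digit) and Sox18 (-0.0696 and -0.0623). Over single genes 1162 alternative results kept direction and side of the threshold, 371 lost the call and 5 reversed.

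Replicate numbers were not used to pair the samples. Correlations of same-numbered samples over 0.1 were found for 0 of 10 pairs of fed and fasted controls and 0 of 5 of the labelled knockout with either group. They were found for 2 of 5 of fed and fasted S662D, and 3 of 5 and 1 of 5 of S662D and control in fed and fasted mice. Of the fed S662D and control pairs 3 of 5 also matched their own number best, so pairing by number was not settled there. With a replicate block the counts were 16 and 8 for fasting in controls and S662D, 0 for the interaction, 13 and 9 for S662D against control in fed and fasted mice (13.8% and 7.82% of all genes), and 0 and 4 for the labelled knockout against control and S662D.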
